A study of Rattus norvegicus with 97 samples.

Results

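The arrays described here come from both replicate selections for high and low alcohol drinking in rats: HAD1 with LAD1, and HAD2 with LAD2. They were taken by the line pair named in their titles, and they are 39 of the 97 arrays of the study, which measured RNA of the nucleus accumbens shell in selectively bred rat lines. There were 10 HAD1 rats, 9 LAD1 rats, 10 HAD2 rats and 10 LAD2 rats, with 1 Affymetrix rat 3' expression array per animal. HAD animals carry the label of alcohol-preferring rats and LAD animals that of non-preferring rats. The labels give neither sex, age nor exposure to alcohol, and name no treatment. Per the labels' protocols, RNA was taken up in Trizol, cleaned on RNeasy columns, and labelled with biotin by 2 cycles of amplification from 25 ng of total RNA. The deposited values are log2 RMA signals.

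HAD and LAD rats were bred from a genetically mixed foundation stock, the N/Nih heterogeneous stock, and the selection was carried out in replicate, so that each pair of lines was closed and bred apart from the other. A difference that goes with the selected trait is looked for in both replicates, whereas an allele can also become common in a closed line by drift. The nucleus accumbens shell lies in the ventral striatum. It is made up mostly of GABAergic medium spiny neurons that receive dopamine and glutamate, and it takes part in reward. Each line is 1 breeding population, so that animals of a line share their ancestry, and p-values over animals say nothing about the spread between selections.

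For each of 31042 probe sets a mean per line was fitted with limma over the 39 arrays. From it came HAD1 minus LAD1, HAD2 minus LAD2, their average, and the interaction, which is the former difference minus the latter. Differences are on the log2 scale, are positive where the HAD line was higher, and are given with the standard error of the fit (n = 10 animals per line, 9 in LAD1). A difference was called at an adjusted p (limma, Benjamini-Hochberg over all probe sets) under 0.05. Equal means called in both pairs with the same sign, with the interaction not called and its 95% interval within a 1.5-fold difference either way. That interval may leave out 0, so equal stands for sizes alike within this bound. Opposite means called in both pairs with opposite signs. A difference of 1 pair alone was called there and in the interaction, while the 95% interval of the other pair held 0 and stayed within 1.5-fold. The 20826 probe sets with 1 gene symbol stand for 14217 genes.

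In a check of the arrays against their labels, 2 arrays stood apart. A label score was computed for each array on 50 probe sets, those whose HAD and LAD values were farthest apart, relative to their spread, when that array itself was set aside, with 0 at the LAD median and 1 at the HAD median. The array labelled HAD1 28 scored 0.0188 and the array labelled LAD1 37 scored 0.987, each close to the end of the opposite line of its pair. The other HAD1 arrays scored 0.783 to 1.10, the other LAD1 arrays -0.0343 to 0.206, HAD2 arrays 0.932 to 1.07, and LAD2 arrays -0.0278 to 0.0511. No array was relabelled. The counts and the genes that lead each class are given with all 39 arrays and with the 37 arrays left without these 2. Since they depart on the line difference itself, a higher count without them is not independent evidence of more differences.

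**Figure D1:**
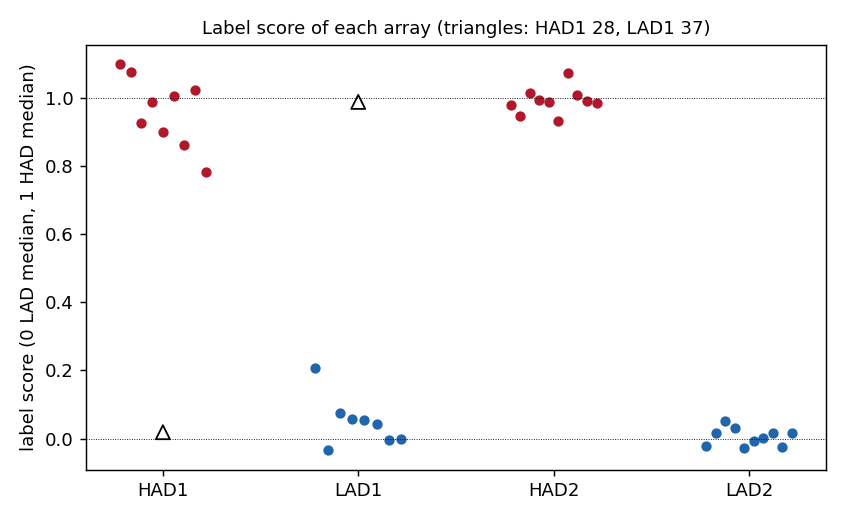
Label score of each of the 39 arrays by line, where 0 is the median of the LAD line and 1 the median of the HAD line of the same pair. The arrays HAD1 28 and LAD1 37 (triangles) lie at 0.0188 and 0.987, while the other points of each line lie near the end that their label names.

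Levels are compared within a pair only. The 3' minus 5' difference of the Gapdh control probe sets, a measure of how far labelling reached along the transcript, ran from 4.19 to 5.38 in HAD1 and 4.57 to 5.23 in LAD1, against 2.299 to 3.60 in HAD2 and 2.36 to 3.19 in LAD2. The pairs thus did not overlap in this measure. Keeping levels within a pair does not remove this from the interaction or from the classes. There, replicate selection and labelling cannot be told apart. Between the lines of a pair no difference passed the test: it was -0.19 in HAD1/LAD1 (exact permutation test, two-sided, p = 0.193, adjusted 0.594 over 4 tests) and 0.081 in HAD2/LAD2 (p = 0.648). For the labelled tissue, the mean of 14 medium spiny neuron markers lay between 11.51 and 12.63 on all arrays, and that of 7 markers of pallidum, septum and basal forebrain between 6.70 and 7.18. Of both lists limma called none in HAD1/LAD1, HAD2/LAD2 or the interaction. At an unadjusted p under 0.05 it was 0, 0 and 1 of the 14, and 1, 0 and 0 of the 7. The mean of 5 cortical projection neuron markers spread more widely, from 6.33 to 8.29 in HAD1 and 6.44 to 7.87 in LAD1. In HAD2 it ran from 6.51 to 7.61, and in LAD2 from 6.46 to 7.01. None of the 5 was called, though all 5 were higher in HAD1, with a median of 0.22. How far this tissue spread enters other genes was not tested.

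The question the comparison asks is which line differences recurred in the second selection. HAD1 and LAD1 differed in 628 probe sets (2.02% of those tested), 303 (0.976%) higher and 325 (1.05%) lower in HAD1, and HAD2 and LAD2 in 1587 (5.11%), 719 (2.32%) higher and 868 (2.8%) lower in HAD2. Without HAD1 28 and LAD1 37 the counts were 1349 (4.35%) and 1677 (5.4%). Both pairs shared 212 called probe sets, which is 33.8% of the HAD1/LAD1 list and 13.4% of the HAD2/LAD2 list; with 37 arrays it was 406, or 30.1% and 24.2%. Of the 212, 122 (0.393% of all tested) had the same sign and 90 (0.29%) opposite signs. With 37 arrays 220 (0.709%) had the same sign and 186 (0.599%) opposite signs. The same sign thus held for 57.5% of the shared calls, and for 54.2% with 37 arrays. Over all probe sets, called or not, 48.9% had the same sign in both pairs (49.1% with 37 arrays), and the differences of the pairs correlated at r = 0.0505 across 31042 probe sets (0.0591 with 37 arrays), which are not independent of each other.

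The interaction was called for 958 probe sets (3.09%), and for 1275 (4.11%) with 37 arrays; at an unadjusted p under 0.05 the counts were 3748 and 4275. The average of the pairs was called for 1146 (3.69%), and for 1571 (5.06%) with 37 arrays. Equal differences numbered 74 (0.238%), 35 higher and 39 lower in the HAD lines, and 156 (0.503%) with 37 arrays, 67 of them equal in both fits. All 90 opposite probe sets were opposite again among the 186 found with 37 arrays. HAD1 and LAD1 alone differed in 130 (0.419%), and in 319 (1.03%) with 37 arrays, 119 in both fits. HAD2 and LAD2 alone differed in 361 (1.16%), and in 331 (1.07%) with 37 arrays, 275 in both fits. Only 6 probe sets had the same sign but unequal sizes in both pairs, and 16 with 37 arrays. A further 42 with the same sign were too imprecise to be placed. The largest group, 1067 probe sets, was called in 1 pair while the interaction was not called, so that no difference between the replicates was shown for it. At the edge of the equal class, an unnamed probe set with differences of 0.82 and 0.70 was kept, with an interval of the interaction up to 0.581, and Ypel1, with 0.73 and 0.65, was not, with an interval up to 0.586.

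**Figure D2:**
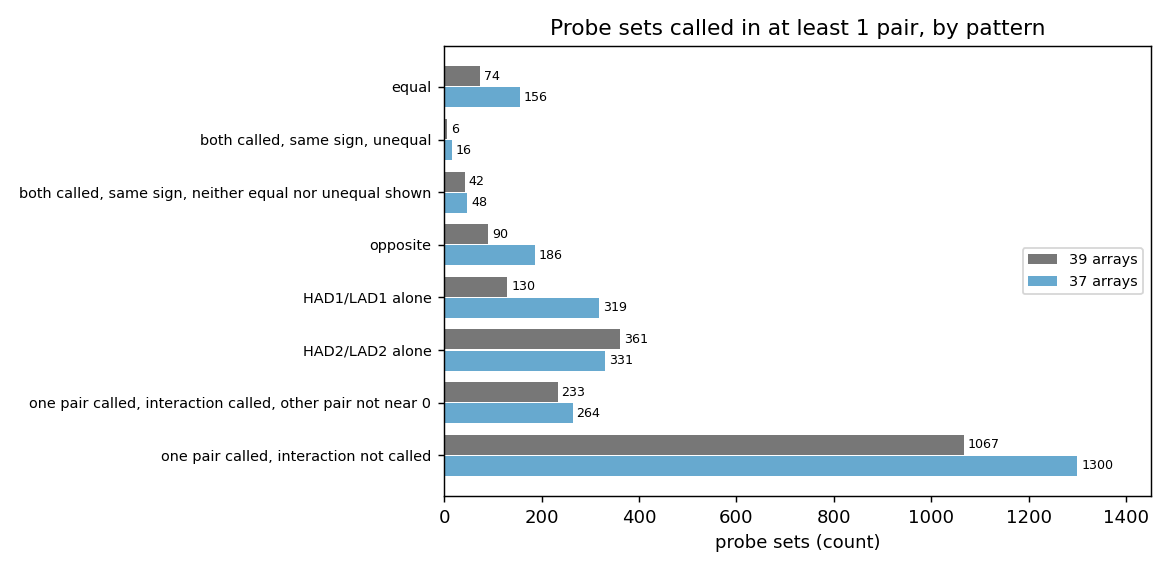
Number of probe sets called in at least 1 line pair, by pattern, for all 39 arrays (grey) and for the 37 arrays without HAD1 28 and LAD1 37 (blue). Equal differences rise from 74 to 156, opposite ones from 90 to 186 and those of HAD1/LAD1 alone from 130 to 319, while those of HAD2/LAD2 alone go from 361 to 331.

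**Figure D3:**
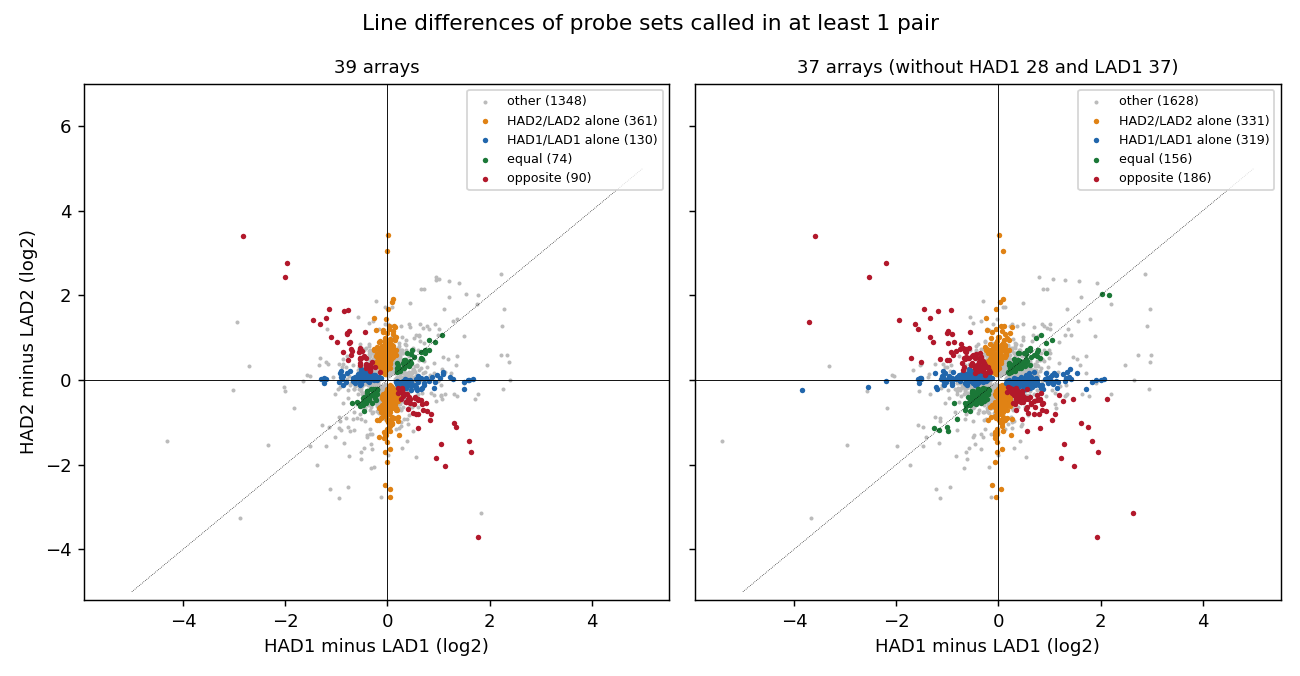
HAD1 minus LAD1 (x axis, log2) against HAD2 minus LAD2 (y axis, log2) for each probe set called in at least 1 pair, with 39 arrays (left) and 37 arrays (right). Equal probe sets (green) lie near the dotted diagonal and opposite ones (red) in the other quadrants. Mx2, the first opposite one among the named genes, is at -2.82 and 3.399 with 39 arrays. The 130 and 361 probe sets of 1 pair alone in that fit (blue, orange) lie along the axes.

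Kif15, a kinesin of the mitotic spindle, was higher in both HAD lines and came first among the named genes that joined the equal class with 37 arrays. Its signal had a lowest, median and highest value of 7.04, 8.73 and 9.22 in HAD1, and 6.02, 6.71 and 8.57 in LAD1. In the other pair it was 8.46, 8.87 and 9.13 in HAD2, and 6.40, 6.84 and 7.32 in LAD2. HAD2 and LAD2 did not overlap, and HAD1 and LAD1 overlapped through the arrays HAD1 28 at 7.04 and LAD1 37 at 8.57. The differences were 1.78 ± 0.22 and 1.999 ± 0.21 (limma, adjusted p = 2.7e-06 and 7.27e-09), and with 37 arrays 2.168 ± 0.13 and 1.999 ± 0.12, or 4.49-fold and 3.998-fold. The interaction was -0.22 ± 0.30, with a 95% interval of -0.84 to 0.39, too wide for the equal class. With 37 arrays the interval was -0.19 to 0.52, and Kif15 was equal.

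Of 9 genes that led the equal class with all arrays, 3 were higher in both HAD lines. Ankrd12 was higher by 0.48 ± 0.12 and 0.71 ± 0.12, Prkd3, a protein kinase D, by 0.38 ± 0.089 and 0.64 ± 0.086, and Dnm1l, the GTPase of mitochondrial fission, by 0.44 ± 0.098 and 0.45 ± 0.095. Lower in both HAD lines were Clic2, of the intracellular chloride channel family, Pls1, an actin-bundling plastin, Mzt2b, a part of the gamma-tubulin complex, the scavenger receptor Scarf2, the myelin membrane protein Pllp, and Gnpat, a peroxisomal enzyme of ether lipid synthesis. The HAD1 minus LAD1 differences of these 6 ran from -0.60 (Mzt2b) to -0.42 (Pllp), and their HAD2 minus LAD2 differences from -0.62 (Clic2) to -0.42 (Gnpat). Clic2 read 6.24, 6.76 and 7.22 in HAD1 against 6.34, 7.23 and 7.74 in LAD1, and 7.02, 7.47 and 7.93 in HAD2 against 7.93, 8.06 and 8.58 in LAD2. Its HAD2 and LAD2 values did not overlap, by a gap smaller than the decimals printed, and HAD1 and LAD1 did. With 37 arrays all of these 9 genes stayed equal except Mzt2b, whose interaction was then called (-0.26 ± 0.073, limma, adjusted p = 0.0306). Of these 9 genes 5 had other probe sets, none of which was equal with all arrays.

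With 37 arrays the equal class gained genes of larger size. Ncor1, a corepressor of nuclear receptors, read 8.42, 8.64 and 9.71 in HAD1 and 8.55, 9.61 and 9.84 in LAD1, then 8.73, 8.93 and 9.36 in HAD2 and 9.78, 10.06 and 10.27 in LAD2. HAD1 28 at 9.71 and LAD1 37 at 8.55 each lay among the other line, and HAD2 and LAD2 did not overlap. Ncor1 had differences of -0.78 ± 0.13 and -1.10 ± 0.13 with all arrays, and of -1.004 ± 0.08 and -1.10 ± 0.074 with 37. Glcci1, a transcript induced by glucocorticoids, was also lower in both HAD lines, with -0.73 and -1.209, and -0.98 and -1.209 with 37 arrays; its HAD2 and LAD2 values did not overlap. RT1-S3, a class Ib gene of the major histocompatibility complex (MHC), was higher by 0.73 and 0.98, and Apln, the peptide apelin, by 0.62 and 0.75.

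First among the named genes of the opposite class was Mx2, a dynamin-like GTPase induced by interferon. Its probe set 1369202_at read 4.83, 5.197 and 8.64 in HAD1 and 4.91, 8.77 and 8.95 in LAD1, and then 7.72, 8.69 and 8.98 in HAD2 and 4.75, 5.15 and 5.40 in LAD2. Within the former pair LAD1 was high and HAD1 low, except that HAD1 28 was at 8.64 and LAD1 37 at 4.91. Within the latter HAD2 was high and LAD2 low, with no overlap. Mx2 differed by -2.82 ± 0.38 in HAD1/LAD1 and 3.399 ± 0.37 in HAD2/LAD2 (limma, adjusted p = 1.06e-05 and 1.33e-08), and the interaction was -6.22 ± 0.53 (adjusted p = 1.24e-10). With 37 arrays neither pair overlapped, and the differences were 12.1-fold lower in HAD1 and 10.6-fold higher in HAD2. The second Mx2 probe set, 1387283_at, differed by -0.19 ± 0.11 and 0.11 ± 0.10, neither called.

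Akap5 anchors protein kinase A and calcineurin at the postsynaptic membrane. It read 9.38, 10.31 and 11.35 in HAD1 and 10.33, 11.52 and 11.73 in LAD1, then 9.94, 10.73 and 11.70 in HAD2 and 9.01, 9.62 and 10.30 in LAD2. The lines overlapped in both pairs, though HAD1 and LAD1 did not once HAD1 28 (11.35) and LAD1 37 (10.33) were left out. Its differences were -1.10 ± 0.22 and 1.02 ± 0.21 (limma, adjusted p = 0.00181 and 0.00121), with an interaction of -2.114 ± 0.30. Ptprj, a receptor tyrosine phosphatase, had the same orientation, with -1.45 and 1.42. So did Epm2aip1, which binds laforin (-0.75 and 0.87), and the scaffold protein Mpp7 (-0.73 and 0.90).

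Higher in HAD1 and lower in HAD2 were Galnt1, which starts mucin-type glycosylation, Crebl2, a leucine zipper protein related to CREB, the RNA-binding protein Elavl1, the mitochondrial chaperone Hspa9, and Cfap69, a protein of cilia and flagella. Galnt1 differed by 1.65 and -1.70, Elavl1 by 1.13 and -2.04, Hspa9 by 0.96 and -1.84, and Cfap69 by 0.70 and -0.70. Crebl2 read 9.89, 10.57 and 10.90 in HAD1 and 7.30, 9.57 and 10.27 in LAD1, then 8.05, 9.98 and 10.80 in HAD2 and 10.67, 10.94 and 11.19 in LAD2. LAD1 animals spread more widely than HAD1 animals and HAD2 animals more widely than LAD2 animals, and the lines overlapped in both pairs. Its differences were 1.60 ± 0.34 and -1.44 ± 0.33. For the 10 leading opposite genes the interaction had an adjusted p of at most 3.25e-05 (limma), and all of them were opposite with 37 arrays too. The 3 other Galnt1 probe sets were not called in either pair. Of these 10 genes 9 had other probe sets, and with all arrays another one was opposite in Epm2aip1 alone.

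Of the genes that were opposite only with 37 arrays, Sgcb, a sarcoglycan of the muscle membrane complex, differed most: 2.62 ± 0.50 and -3.14 ± 0.46, against 1.83 (not called) and -3.14 with all arrays. A second Sgcb probe set had the reverse orientation, with -0.29 (not called) and 0.42. Eeig2 differed by -1.57 and 1.212, Rab14, a GTPase of endosomal traffic, by -0.64 and 0.72, and Lrp6, a coreceptor for Wnt, by -0.63 and 0.54. Kiz, a centrosomal protein, differed by 0.71 and -0.63, and the extracellular matrix protein Fras1 by 0.57 and -1.20. With all arrays each of these 6 was already called in HAD2/LAD2 and in the interaction.

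**Figure D4:**
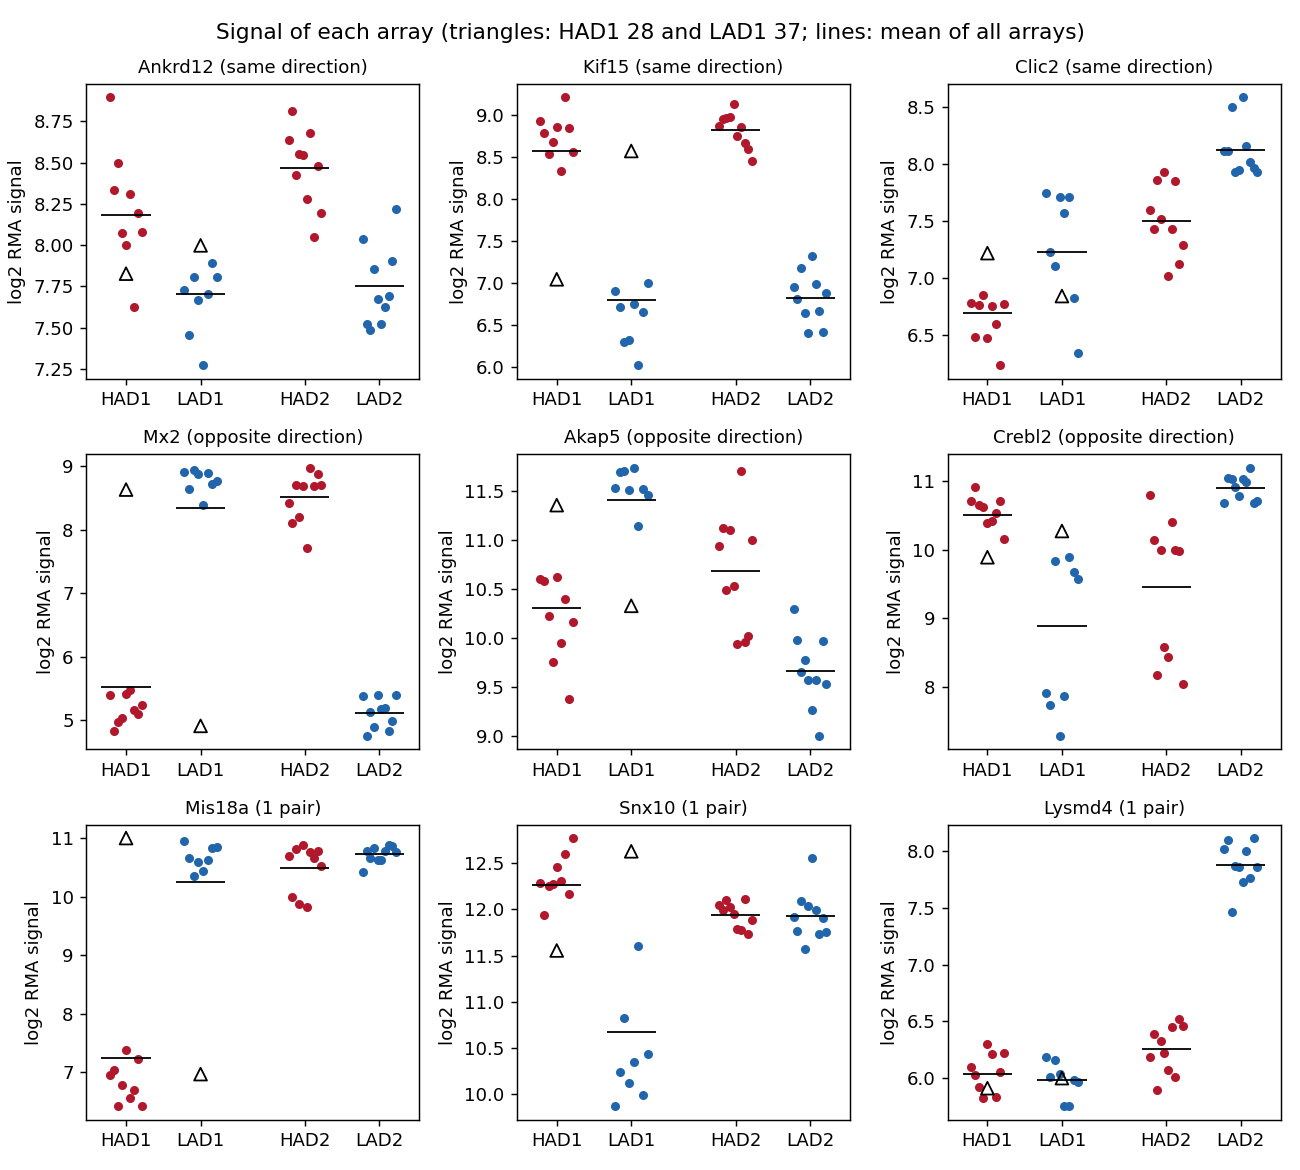
Log2 RMA signal of each array for 9 of the probe sets described, by line, with the mean of all arrays of a line as a bar; the pairs are drawn apart because levels are not compared between them. HAD1 28 and LAD1 37 (triangles) lie with the opposite line for Mx2, at 8.64 and 4.91, and for Mis18a, at 11.005 and 6.96, while for Lysmd4 the LAD2 points, from 7.46 to 8.11, lie above all HAD2 points.

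In HAD1/LAD1 alone, the largest difference among the named genes with all arrays was that of Myo5c, a class V myosin. It read 9.52, 11.18 and 11.41 in HAD1 and 8.74, 9.18 and 11.14 in LAD1, and the arrays HAD1 28 (9.52) and LAD1 37 (11.14) alone made these lines overlap. HAD2 and LAD2 read 8.69, 8.92 and 9.25 in HAD2 and 8.28, 8.90 and 9.24 in LAD2, which overlapped widely. The differences were 1.67 ± 0.21 and 0.024 ± 0.20, and the interaction was 1.65 ± 0.29 (limma, adjusted p = 0.000184). The other Myo5c probe sets belonged to the same class but not with 1 sign: 1380067_at was higher by 0.82 and 1391018_at had a difference of -0.54.

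Snx10, a sorting nexin of endosomes, was the only named gene of this class with several probe sets that all had the same pattern and sign. Its 2 probe sets had 1.59 ± 0.21 and 1.503 ± 0.19 in HAD1/LAD1 against 0.0078 and -0.20 in HAD2/LAD2. Also higher in HAD1 alone were Oas1b, of the interferon-induced oligoadenylate synthetases, by 1.04, the acid-sensing ion channel Asic2 by 0.97, the phosphatase Ppm1a by 0.72, and Mrpl50, of the mitochondrial ribosome, by 0.71. Lower in HAD1 alone were Ifnlr1, the receptor chain for interferon lambda (-1.294), Atf3, a stress-induced transcription factor (-1.239), and Myo5a, another class V myosin (-0.90). They were followed by the kinesin heavy chain Kif5c (-0.87), the phosphatase Ptpn4 (-0.86) and the DNA repair protein Mgmt (-0.82). In the probe set that stands for each of these 12 genes, which for Snx10 is the former, HAD2 minus LAD2 lay between -0.12 (Ppm1a) and 0.21 (Myo5a), and all 12 kept the class with 37 arrays.

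Mis18a, which helps to load the centromeric histone, gave the largest difference of the class with 37 arrays. It read 6.41, 6.86 and 11.005 in HAD1 and 6.96, 10.63 and 10.95 in LAD1. Apart from HAD1 28 at 11.005 and LAD1 37 at 6.96, the highest HAD1 array was at 7.38 and the lowest LAD1 array at 10.35. HAD2 read 9.82, 10.69 and 10.88, overlapping LAD2 at 10.42, 10.77 and 10.88. The difference in HAD1/LAD1 was -3.01 ± 0.41 with all arrays and -3.84 ± 0.14 with 37, or 14.3-fold (limma, adjusted p = 2.32e-22), against -0.24 ± 0.13 in HAD2/LAD2. Further genes in the class with 37 arrays were Icoslg, a costimulatory ligand for T cells (1.13), Dennd1b, an exchange factor for a Rab GTPase (1.05), Prss35 (1.05), Inhca (-1.20) and Fry (-1.06).

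In HAD2/LAD2 alone, Lysmd4, a LysM domain protein of unsettled function, headed the named higher genes. Another of its probe sets came after Dguok, Map2 and Slc52a2 among the lower ones. Probe set 1372060_at read 9.63, 9.78 and 9.91 in HAD2 and 5.48, 6.11 and 9.04 in LAD2, without overlap, against 9.79, 10.05 and 10.17 in HAD1 and 9.78, 10.001 and 10.09 in LAD1. It was higher in HAD2 by 3.43 ± 0.22, or 10.8-fold (limma, adjusted p = 8.28e-15), and in HAD1 by 0.021 ± 0.22. Probe set 1385777_at read 5.89, 6.27 and 6.52 in HAD2 and 7.46, 7.86 and 8.11 in LAD2, also without overlap, and had a difference of -1.62 ± 0.081. The other Lysmd4 probe sets, 1384166_a_at and 1384167_at, had differences of -0.74 and -0.76. All 4 were in the class in both fits, so a line difference of Lysmd4 in this pair was seen by each, but its direction depended on the probe set.

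Dguok, the mitochondrial deoxyguanosine kinase, read 5.55, 5.66 and 8.64 in HAD2 and 7.73, 8.87 and 9.35 in LAD2, and 1 HAD2 array at 8.64 made these lines overlap. The difference was -2.76 ± 0.24 there and 0.047 ± 0.25 in HAD1/LAD1. Map2, the microtubule-associated protein of dendrites, read 8.13, 8.73 and 9.43 in HAD2 and 9.71, 10.76 and 11.12 in LAD2 without overlap, a difference of -1.93 ± 0.18 against -0.0097 ± 0.18 in HAD1/LAD1. A second Map2 probe set was not in the class. Also lower in HAD2 alone were the riboflavin transporter Slc52a2 (-1.69), the ubiquitin ligase Traf6 (-1.305), and Isca1, of iron-sulfur cluster assembly (-1.267), all without overlap. Higher in HAD2 alone were Ano5 of the anoctamin family (1.46), Grin3a, a subunit of NMDA receptors (1.17), the helicase Ddx42 (1.17), Glt8d2 (1.13), and Rorb, a nuclear receptor (0.94). Of these 12 probe sets, Grin3a alone left the class with 37 arrays, where the interval of HAD1 minus LAD1 reached -0.59. Of the genes that entered the class with 37 arrays, 6 were named, with differences from -0.61 (Plekhd1) to 0.84 (Uros, an enzyme of haem synthesis). They were Uros, Dpy19l4, Irgm, Plekhd1, Cmc1 and Spata6.

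Grm5, the metabotropic glutamate receptor mGlu5, was lower in both HAD lines but not equally. Its probe set 1393665_at read 7.17, 7.57 and 7.998 in HAD1 and 7.80, 8.73 and 9.99 in LAD1, which overlapped, and 7.29, 7.65 and 8.33 in HAD2 and 9.59, 10.20 and 11.38 in LAD2, which did not. The differences were -1.12 ± 0.22 and -2.57 ± 0.21, and the interaction was 1.45 ± 0.31 (limma, adjusted p = 0.00231; 1.348 ± 0.30 and 0.00374 with 37 arrays). The other Grm5 probe set, 1369355_at, had -0.30 ± 0.11 (not called) and -1.264 ± 0.11, with an interaction of 0.97 ± 0.15. HAD2 minus LAD2 was thus the larger with both.

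No probe set separated the lines of both pairs completely with all 39 arrays. HAD1 and LAD1 values did not overlap for 3 probe sets (0.00966%) and HAD2 and LAD2 values for 285 (0.918%). With 37 arrays HAD1 and LAD1 did not overlap for 348 (1.12%). In both pairs at once, 29 (0.0934%) then did not overlap in the same direction and 20 (0.0644%) in opposite directions. Of the 29, 15 had 1 gene symbol, and those not named so far, chosen here after their values were seen, were Rab22a, Sync, Gpatch11, Fcrl2, Cpt1a, Gpsm3, Top3b and Vwa5b2. The differences with 37 arrays were -1.98 and -1.56 for Rab22a, a GTPase of endosomes, 1.79 and 1.44 for Sync, and 0.33 and 0.42 for Cpt1a, which brings fatty acids into mitochondria. Of the 20, 10 had 1 symbol, among them Amd1, the decarboxylase of polyamine synthesis (0.35 and -0.45), and Zfp612 (-0.69 and 0.75).

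Genes with several probe sets were examined for whether these gave the same class. Of the 43 equal probe sets with 1 symbol, 20 belonged to genes with further probe sets and none had another equal one. Of 51 opposite ones, 33 had further probe sets and 9 had another opposite one. In HAD1/LAD1 alone it was 5 of 38 and in HAD2/LAD2 alone 25 of 108. The opposite genes with several such probe sets, picked after their values were seen, were Bmp6, a bone morphogenetic protein, the kinase Mapk8, Epm2aip1 and Wdr36. Bmp6 was higher in HAD1 and lower in HAD2 in 2 of 4 probe sets, by 0.45 and -0.54 in 1388920_at, and Mapk8 also in 2 of 4, by 0.44 and -0.44 in 1382079_at. All 3 Wdr36 probe sets were opposite, but 1377619_at was higher in HAD1 (0.43) and 1390788_a_at lower (-0.45).

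Interferons switch on genes whose promoters often hold the interferon-stimulated response element, bound by interferon regulatory factors. Of 29 measured genes of this response, 3 were called higher and 2 lower in HAD1, and 2 higher in HAD2, against 2.02% and 5.11% of all probe sets called. Here and in the lists that follow each gene was read by its brightest probe set, which for Mx2 is 1387283_at, not called, so that Mx2 is not among the genes counted as called. The median differences were 0.050 and 0.057, beside -0.0053 and -0.0010 over all probe sets. Ifi27 was higher in both HAD lines. It read 8.65, 10.16 and 10.65 in HAD1 and 8.58, 8.81 and 10.68 in LAD1, then 9.85, 10.21 and 11.06 in HAD2 and 8.53, 8.996 and 9.61 in LAD2, without overlap in HAD2/LAD2. It differed by 1.01 ± 0.24 and 1.212 ± 0.23 (limma, adjusted p = 0.0101 and 0.000362), with an interval of the interaction of -0.87 to 0.46, too wide to be called equal. Irf7, a regulatory factor, was higher by 0.49 in HAD1 (called) and 0.20 in HAD2 (not called), and Irgm by 0.43 in HAD2. Ifitm1 had a difference of -0.35 in HAD1/LAD1. With 37 arrays 8 were called in HAD1/LAD1, where 4.35% of all probe sets were.

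Oas1b read 5.24, 6.501 and 6.98 in HAD1 and 4.97, 5.27 and 6.67 in LAD1, and 5.07, 5.26 and 6.03 in HAD2 and 5.11, 5.22 and 5.47 in LAD2. HAD1 was high apart from HAD1 28 at 5.24, and LAD1 low apart from LAD1 37 at 6.67, while HAD2 and LAD2 overlapped. Ifnlr1 read 5.25, 5.54 and 7.02 in HAD1 and 5.87, 6.94 and 7.54 in LAD1, with the reverse order, and 7.44, 7.60 and 7.898 in HAD2 and 7.38, 7.60 and 7.80 in LAD2. For both the interaction was called (0.99 ± 0.23 and -1.326 ± 0.22, limma, adjusted p = 0.0064 and 0.000107).

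The letters GAAA, then any 2 bases, then GAAA again, the core of that element, were searched on both strands in the 250 bases before the start of each gene in RefSeq (GRCr8). This search was added after the values were seen. They occurred in 1140 of 33469 promoters (3.41%), in 15 of the 23 measured interferon response genes with a promoter in the table (65.2%), and in 4 of the 5 of them whose brightest probe set was called in a pair or in the interaction, which do not include Mx2. The promoters of 3 genes that stand for the patterns are shown, in 5' to 3' order of the gene with the matches in capitals: Ifi27 for a difference in both pairs (chr6:128355062-128355311, plus strand), and Oas1b (chr12:41395853-41396102, minus strand) and Ifnlr1 (chr5:153203347-153203596, plus strand) for HAD1/LAD1 alone.
Ifi27: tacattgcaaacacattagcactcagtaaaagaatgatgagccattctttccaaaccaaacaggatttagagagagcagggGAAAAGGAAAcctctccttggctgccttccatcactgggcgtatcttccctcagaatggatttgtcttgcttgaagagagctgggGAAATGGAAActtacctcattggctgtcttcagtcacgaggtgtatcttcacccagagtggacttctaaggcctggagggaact
Oas1b: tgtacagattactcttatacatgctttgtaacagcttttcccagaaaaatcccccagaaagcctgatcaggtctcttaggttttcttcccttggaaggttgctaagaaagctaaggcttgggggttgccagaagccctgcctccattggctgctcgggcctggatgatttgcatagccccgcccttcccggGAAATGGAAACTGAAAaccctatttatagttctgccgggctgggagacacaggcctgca
Ifnlr1: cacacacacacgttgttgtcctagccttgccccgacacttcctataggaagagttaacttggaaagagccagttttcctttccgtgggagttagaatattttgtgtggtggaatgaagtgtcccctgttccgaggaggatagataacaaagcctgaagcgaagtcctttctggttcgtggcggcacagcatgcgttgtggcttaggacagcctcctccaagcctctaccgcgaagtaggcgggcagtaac
Ifi27 had 2 matches, the farther beginning 169 bases before the start, and Oas1b had 2 that overlap. Ifnlr1 had none, which says only that these letters are not in this window. A match is a description of the reference sequence and not of the lines.

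MHC and immunoproteasome genes present peptides to T cells. Of 21 measured, 2 were called higher and 1 lower in HAD1, and 3 higher and 5 lower in HAD2, beside 2.02% and 5.11% of all probe sets called in these pairs; the median differences were -0.030 and -0.026. The class Ib gene RT1-T24-4 was higher in both HAD lines, by 1.216 ± 0.24 and 2.33 ± 0.23. It read 7.61, 8.20 and 8.66 in HAD2 against 5.59, 5.83 and 6.31 in LAD2 without overlap, and 5.84, 7.41 and 8.16 in HAD1 against 5.54, 5.78 and 7.72 in LAD1 with overlap. Its interaction of -1.11 ± 0.33 missed the threshold (limma, adjusted p = 0.0561), so that equal sizes were neither shown nor refuted. RT1-S3 was higher in both as given above. RT1-DMb, which helps to load class II molecules, had -0.081 in HAD1/LAD1 and -0.45 in HAD2/LAD2, with a called interaction that was lost with 37 arrays (adjusted p = 0.0721). RT1 genes are near copies of each other, and the RT1-T24-4 probe set is of the kind that can bind several transcripts, so the gene behind such a signal is uncertain.

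Of 12 oligodendrocyte markers, which serve myelin, 7 were called lower in HAD2 and none was called in HAD1 (1 at an unadjusted p under 0.05, limma), beside 2.8% of all probe sets called lower in HAD2 and 2.02% called in HAD1/LAD1, with medians of -0.31 in HAD2/LAD2 and -0.045 in HAD1/LAD1; 1 was called in HAD1/LAD1 with 37 arrays. The interaction was called for 2 of them, Mbp (0.049 and -0.28) and Mobp, by its brightest probe set (0.31 and -0.30), so for the other 5 a difference between the replicates was not shown. Another Mobp probe set, 1368263_a_at, was equal instead (-0.44 and -0.41). The mean level of the 12 markers ran from 10.36 to 11.05 in HAD1 and 10.60 to 10.97 in LAD1, and from 10.61 to 10.99 in HAD2 and 10.79 to 11.59 in LAD2. In bulk tissue, fewer cells of a type and less RNA per cell cannot be told apart. The part of these cells in the differences of other genes was not tested.

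Of 12 microglial markers, 1 was called lower in HAD1, and 1 higher and 2 lower in HAD2. Cx3cr1, the fractalkine receptor, was equal, with -0.20 ± 0.053 and -0.24 ± 0.052. C1qa, a complement component, had -0.21 (not called) and -0.44, and was equal with 37 arrays. P2ry12, a receptor for ADP, was higher in HAD2 alone, by 0.69 and by 0.55 in its other probe set, against 0.022 and -0.018 in HAD1/LAD1. Of 10 endothelial markers, 1 was called higher and 2 lower in HAD1, and 1 higher and 3 lower in HAD2; over all probe sets 2.02% and 5.11% were called. Vwf, the von Willebrand factor, was equal (-0.27 ± 0.076 and -0.29 ± 0.074), and Abcb1a, an efflux pump of the blood-brain barrier, was opposite (-0.41 ± 0.078 and 0.36 ± 0.076), though its other probe set was not called. The angiopoietin receptor Tek was higher in HAD1 by 0.43 and had -0.20 in HAD2/LAD2, with an interaction of 0.63 ± 0.12; with 37 arrays it was opposite. Emcn was lower in HAD2 alone (-0.41), and Slco1a4 was called lower in HAD2 (-0.24) without a called interaction.

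Glutamate signalling genes were counted in the same way, beside 2.02% of all probe sets called in HAD1/LAD1, 5.11% in HAD2/LAD2 and 3.09% in the interaction. Of 15 scaffold genes of the glutamate postsynapse, 1 was called higher and 2 lower in HAD1, and 2 higher in HAD2. They were Shank2, equal with 0.19 ± 0.052 and 0.21 ± 0.051, Akap5, opposite as given above, and Homer2, lower in HAD1 alone (-0.41 ± 0.092 against 0.05 ± 0.09). Of 7 metabotropic receptors, Grm5 was lower in both lines and Grm2, which restrains glutamate release, was lower in HAD1 alone, with -0.45 ± 0.10 against 0.029 ± 0.097 and an interaction of -0.48 ± 0.14 (limma, adjusted p = 0.0443). Grm2 read 6.15, 6.48 and 6.84 in HAD1 and 6.52, 6.96 and 7.24 in LAD1, which overlapped. Of 17 ionotropic subunits Grin3a was the 1 called, in HAD2/LAD2. Of 13 GABA-A receptor subunits none was called in a pair or in the interaction with 39 arrays (limma), with 1, 2 and 2 at an unadjusted p under 0.05. With 37 arrays 1 was called in HAD1/LAD1, 1 in HAD2/LAD2 and 1 in the interaction.

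For the further lists the same shares of all probe sets apply, 2.02% called in HAD1/LAD1 and 5.11% in HAD2/LAD2, and counts of 1 or a few genes near them are no result about a list. Among neuropeptides, Nmb, neuromedin B, was the only one of 27 genes called in a pair with all arrays. It had -1.82 ± 0.34 in HAD1/LAD1 and -0.67 ± 0.33 in HAD2/LAD2, and its interaction was called with 37 arrays (-1.52 ± 0.41, limma, adjusted p = 0.0222) but not with all (0.263). Gsta4, a glutathione transferase for lipid aldehydes, was lower in both HAD lines (-0.86 ± 0.15 and -0.55 ± 0.15) among 33 antioxidant genes, of which 1 was called in HAD1 and 3 in HAD2, all lower. Aldh7a1, an aldehyde dehydrogenase, was lower in HAD2 alone (-0.26 against 0.035). Of 47 subunits of oxidative phosphorylation 1 was called, Ndufa4, lower in HAD1 alone by a small amount (-0.16 ± 0.042). Of 23 dopamine and serotonin genes 1 was called lower in HAD2, and 1 was called in HAD1/LAD1 with 37 arrays. Of 16 immediate early genes none was called in either pair, in either fit (limma), with 0 in HAD1/LAD1 and 0 in HAD2/LAD2 at an unadjusted p under 0.05 over all arrays. With 37 arrays it was 3 in HAD1/LAD1, 0 in HAD2/LAD2 and 2 in the interaction.

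**Figure D5:**
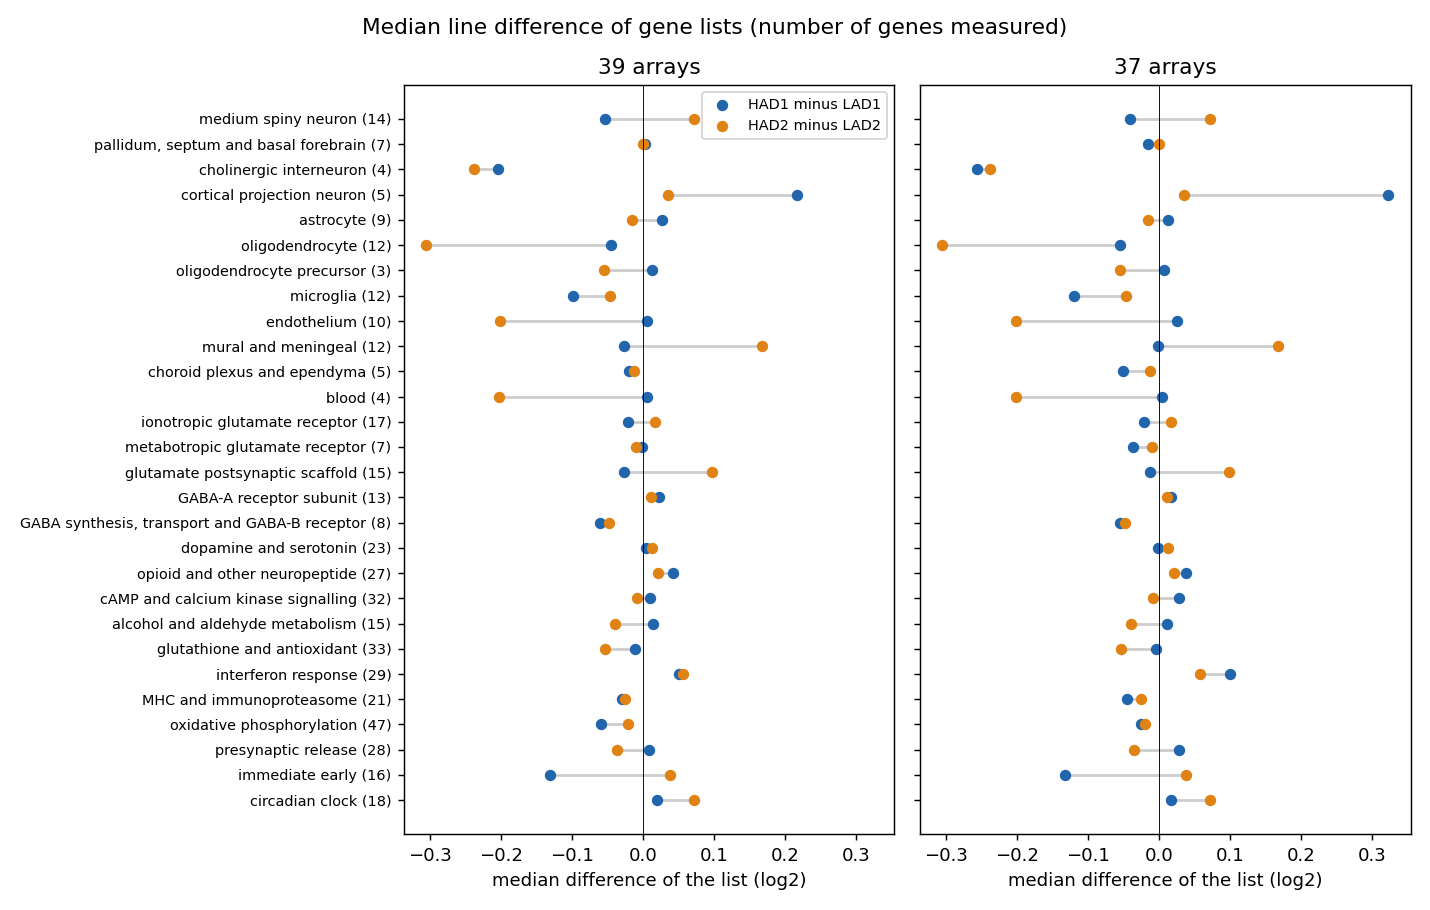
Median difference (log2) of each gene list in HAD1/LAD1 (blue) and HAD2/LAD2 (orange), with 39 arrays (left) and 37 arrays (right); the number of measured genes is in brackets. The oligodendrocyte list lies at -0.045 in HAD1/LAD1 and -0.31 in HAD2/LAD2 with 39 arrays. The list of 4 cholinergic interneuron markers lies at -0.20 and -0.24, with all 4 lower in both HAD lines. Of them 0 and 1 were called in these pairs, beside 2.02% and 5.11% of all probe sets, and 3 and 3 had an unadjusted p under 0.05 (limma). Their average was called lower for 1, and for 3 with 37 arrays, beside 3.69% and 5.06% of all probe sets with a called average. Most other lists lie within 0.1 of 0 in both pairs.

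Neighbours in the order of the RefSeq annotation were counted after the values were seen, and the shares are descriptions without a test. Of 14167 named genes, 14.8% had a neighbour called in at least 1 pair, and of the 1129 called genes 25%. The share was 27.9% of 43 equal genes, 26.1% of 46 opposite ones, 37.2% of 78 in HAD1/LAD1 alone and 27.3% of 209 in HAD2/LAD2 alone. With 37 arrays 19% of all genes and 29.9% of called genes had such a neighbour. No 2 equal genes were neighbours with all arrays, whereas 10 of 88 were with 37, among them Ncor1 beside Pigl. Of the 78 genes of HAD1/LAD1 alone, 15 had a neighbour of the same class, among them Myo5a beside Myo5c, Asic2 beside Ccl2, and Herpud1 beside Slc12a3. The longest runs held 5 called genes. In the run Iftap, Traf6, Prr5l, Commd9 and Ldlrad3 the former 4 belonged to HAD2/LAD2 alone and Ldlrad3 was opposite. In the run Cpne2, Nlrc5, Herpud1, Slc12a3 and Nup93, Nlrc5 and Nup93 belonged to HAD2/LAD2 alone and Herpud1 and Slc12a3 to HAD1/LAD1 alone. These are the classes with all arrays; with 37 arrays Prr5l, Commd9 and Nlrc5 were no longer in the class of HAD2/LAD2 alone. Neighbours can overlap in their transcripts, which was not tested.

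The equal and opposite probe sets were then looked up in the other line pairs of the study, which are separate animals from separate selections. Of the 74 equal ones, 9 (12.2%) were called in P and NP rats, where 2.28% of all probe sets were, 5 with the same sign and 4 with the opposite sign. In AA and ANA rats 9 (12.2%, against 3.34%) were called, 6 with the same sign and 3 opposite, and in sP and sNP rats 5 (6.76%, against 3.71%), 2 with the same sign and 3 opposite. Of the 90 opposite ones, 11 (12.2%), 23 (25.6%) and 10 (11.1%) were called in these pairs. These shares were not compared by a test. No equal probe set was called with the same sign in all 3 other pairs, with or without their departing arrays. Without those arrays 3.8%, 4.53% and 8.6% of all probe sets were called in P/NP, AA/ANA and sP/sNP, and of the equal ones 16.2%, 14.9% and 8.11%. Tmem14a and the unnamed 1391002_at were then called with the same sign in 2 of them.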

How the data were processed

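The authors deposited log2 RMA signals, 1 value per probe set and array, computed per the submitters' processing notes (no version of RMA given there). The 57 control probe sets were left out and no filter on low values was used. Gene symbols came from the platform annotation: 20826 probe sets had 1 symbol, 436 several and 9780 none, and 20758 matched a RefSeq gene id. The RefSeq table (GRCr8) served for names, gene order and promoters. The fit used limma 3.58.1 in R 4.3.3 with lmFit and eBayes, without trend, two-sided, and was tested on simulated data. Groups came from the titles. Members, gene lists, classes and the label score limit of 0.3 were chosen with earlier results of these data known. Named genes were the 10 equal ones of largest average, the 10 opposite ones of largest smaller difference and the 6 highest and 6 lowest of each single pair; with 37 arrays, 6, 6, 3 and 3 that joined a class; and called list members of smallest adjusted p (up to 3 by interaction and 3 by average). 1 gene taken by this rule is not reported here. Other genes were chosen after their values were seen. Each list gene was read from its brightest probe set. P-values measure the spread between animals of a line. Alternatives covered the arrays, all 97 arrays, trend, centring, level, covariates, separate fits and the bound.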

Additional observations from a re-analysis of the deposited data

Results flagged for a closer look

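For 97 probe sets of the genes described and 4 measures per array, each line was examined for an array far from the rest of its line, that is with a gap to the next array larger than Dixon's 95% limit for that number of arrays. This held 65 times among 404 groups of arrays. Chance flags about 1 in 20 groups. LAD1 37 accounted for 26 and HAD1 28 for 19. These counts are no independent sign, since many of the genes were chosen for HAD1/LAD1 differences, some of them without these 2 arrays, and the label score is 1 of the measures. Values are log2 signals, except the label score, which is scaled to 0 at the LAD median and 1 at the HAD median. LAD1 37 read 8.56 for Ptprj, 4.91 for Mx2, 7.01 for Cx3cr1, 8.55 for Ncor1, 9.82 for Gsta4, 10.37 for Mrpl50 and 11.14 for Myo5c. The array LAD1 37 also read 7.78 for Icoslg, 8.57 for Kif15, 11.66 for Sgcb, 8.55 for Glcci1, 8.20 for Dguok, 6.69 for Fry and 10.33 for Akap5. For LAD1 37 the values further were 10.68 for Ifi27, 6.67 for Oas1b, 9.54 for RT1-S3, 8.29 for Epm2aip1, 7.72 for RT1-T24-4, 5.87 for Ifnlr1 and 10.69 for Elavl1. In LAD1 37 there were, in addition, 8.60 for Mzt2b, 10.16 for Tek, 8.85 for Mpp7, 6.96 for Mis18a and 0.99 for the label score. HAD1 28 read 7.67 for Mgmt, 11.20 for Ptprj, 8.64 for Mx2, 9.71 for Ncor1, 8.63 for Scarf2, 8.91 for Mrpl50 and 9.52 for Myo5c. The array HAD1 28 also read 5.996 for Icoslg, 7.04 for Kif15, 7.55 for Dennd1b, 5.24 for Oas1b, 9.44 for Epm2aip1, 9.17 for Cfap69 and 7.02 for Ifnlr1. For HAD1 28 the values further were 9.47 for Tek, 11.005 for Mis18a, 6.85 for Kif5c, 6.78 for Inhca and 0.019 for the label score.

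The other flags were spread over further arrays, with at most 3 on each. LAD1 33 lay apart at 10.20 for Gnpat and 8.71 for Slc52a2. HAD2 3 lay apart at 9.13 for Abcb1a, 9.36 for Ncor1 and 8.55 for Pls1. LAD2 13 lay apart at 9.04 for Lysmd4. HAD1 27 lay apart at 8.31 for Dguok. HAD2 1 lay apart at 8.64 for Dguok and 10.78 for Slc5a7. HAD2 5 lay apart at 10.30 for Ddx42 and 8.69 for Hspa9. LAD2 16 lay apart at 12.55 for Snx10, 9.48 for Mzt2b and 7.30 for Inhca. HAD2 2 lay apart at 6.03 for Oas1b. LAD2 17 lay apart at 5.47 for Oas1b and 8.93 for Vwf. LAD1 39 lay apart at 8.86 for Vwf. HAD1 29 lay apart at 7.60 for Pls1. HAD2 9 lay apart at 7.43 for Traf6.

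HAD1 minus LAD1 differed from HAD2 minus LAD2 by the interaction of the fit (limma, adjusted p under 0.05) for 958 probe sets (3.09% of all). Among them were 56 of the 97 probe sets examined here, many of which were chosen by classes or rankings that use the interaction. Their number is thus no result about these probe sets. Interactions above 0, with the HAD line relatively higher in the former pair, were 4.98 for Sgcb, 3.34 for Galnt1, 3.17 for Elavl1, 3.05 for Crebl2, 2.81 for Dguok, 2.79 for Hspa9, 1.92 for Map2, 1.69 for Fras1 and 1.68 for Lysmd4 (1385777_at). Next in size were 1.66 for Slc52a2, 1.65 for Myo5c, 1.58 for Snx10, 1.53 for Traf6, 1.45 for Grm5, 1.401 for Cfap69, 1.235 for Kiz, 1.231 for Isca1 and 0.99 for Oas1b. These were followed by 0.84 for Ppm1a, 0.84 for Asic2, 0.77 for Mrpl50, 0.63 for Tek, 0.61 for Mobp, 0.48 for Emcn, 0.42 for Hba-a3, 0.37 for RT1-DMb and 0.36 for Cry2. The smallest of them were 0.35 for Camkk1, 0.33 for Mbp and 0.30 for Aldh7a1. Interactions below 0 were -6.22 for Mx2, -3.41 for Lysmd4 (1372060_at), -2.87 for Ptprj, -2.77 for Mis18a, -2.39 for Eeig2, -2.114 for Akap5, -1.72 for Ano5, -1.63 for Mpp7 and -1.62 for Epm2aip1. Then came -1.326 for Ifnlr1, -1.278 for Atf3, -1.271 for Rab14, -1.266 for Grin3a, -1.216 for Glt8d2, -1.11 for Myo5a, -1.06 for Ddx42, -1.02 for Lrp6 and -0.95 for Ptpn4. Smaller ones were -0.79 for Rorb, -0.77 for Mgmt, -0.77 for Abcb1a, -0.76 for Kif5c, -0.66 for P2ry12, -0.48 for Grm2, -0.46 for Homer2 and -0.22 for Ndufa4.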

How the results depend on the processing

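Leaving out HAD1 28 and LAD1 37 moved HAD1 minus LAD1 from 628 to 1349 calls, same-sign calls from 122 to 220, equal from 74 to 156, opposite from 90 to 186 and HAD1/LAD1 alone from 130 to 319. Testing only probe sets at or above the median level gave 412 HAD1 minus LAD1 calls and 81 for HAD1/LAD1 alone, with fewer probe sets tested. A separate fit for each pair gave 371 and 62 same-sign calls; the cause was not tested. The narrower bound of the interval gave, by construction, 39 equal and 76 for HAD1/LAD1 alone. Chosen after seeing the data, the 37 arrays with trend and robust gave 1320 HAD1 minus LAD1 calls, and with the Gapdh difference as covariate 1488 interactions, the cause of which was not tested. Leaving out each array in turn gave 518 to 1004 HAD1 minus LAD1 calls, 1372 to 1699 HAD2 minus LAD2, 838 to 1152 interactions, 1045 to 1372 averages, 91 to 171 same-sign, 45 to 119 equal, 78 to 142 opposite, 98 to 234 for HAD1/LAD1 alone and 316 to 399 for HAD2/LAD2 alone. The arrays that moved a count over 1.5 times were LAD1 37, LAD1 33 (equal 45) and HAD1 28 (HAD1/LAD1 alone 209); with 37 arrays no further array did so for these 9 counts. Of 1738 gene comparisons over 7 settings, 1641 kept their call, 46 lost it, 51 gained it and none changed sign. No paired analysis was possible, since the lines compared are different animals and the labels name no matched ones. The 9 or 10 arrays per line limit the precision, and RMA values carry no detection call, so signal over background is unknown here.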
